A study of Mus musculus with 6 samples.

Results

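The tubulin isotypes described here are 10 genes of the deposited table, chosen by name: the alpha-tubulin genes Tuba1a, Tuba1b and Tuba4a and the beta-tubulin genes Tubb2a, Tubb2b, Tubb3, Tubb4a, Tubb4b, Tubb5 and Tubb6. All 10 names were found, each once, among 55414 genes. They were measured by RNA sequencing in male mice, in neurons of the medial mammillary nucleus of the hypothalamus. The 6 libraries comprise 3 of PV-positive neurons (PV replicates 6, 7 and 8; PV is parvalbumin) and 3 of Drd2-positive neurons (Drd2 replicates 1, 2 and 3; Drd2 is the D2 dopamine receptor). In both groups slices were treated with papain and fluorescent cells were drawn up with glass electrodes. The sources used here give neither the fluorescent alleles nor the age of the mice, nor how many cells or mice stand behind a library. By the series design the libraries are biological replicates. If they do not come from separate animals, the tests measure only the spread between these libraries.

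Microtubules are polymers of a dimer of 1 alpha-tubulin and 1 beta-tubulin, and carry axonal and dendritic transport. Mammals hold several genes for each partner, and the proteins differ mainly in a short acidic tail at the C-terminus. That tail is where enzymes add or remove glutamates and the final tyrosine, and where many associated proteins bind. Tubb3 is the isotype most closely tied to neurons, Tuba1a and Tubb2b are known from developing neurons, and Tubb4a is abundant in brain, including the myelinating oligodendrocytes.

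The ends of the coding sequences show part of what separates the isotypes. They do not show which genes can exchange reads, for which longer windows are given below. Each line gives the last 66 coding bases, stop codon included, 5′ to 3′ on the coding strand, from GENCODE M21 transcripts (mm10). Capitals mark bases that lie in no run of 12 bases shared with another gene of the same family, where the alpha genes compared were Tuba1a, Tuba1b, Tuba1c and Tuba4a and the beta genes included Tubb6.
Tuba4a (chr1:75215622-75215687, minus strand): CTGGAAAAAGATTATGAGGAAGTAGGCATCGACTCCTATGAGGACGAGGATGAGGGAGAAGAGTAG
Tubb2a (chr13:34074468-34074533, minus strand): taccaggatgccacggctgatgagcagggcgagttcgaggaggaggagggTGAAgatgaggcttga
Tubb2b (chr13:34127471-34127536, minus strand): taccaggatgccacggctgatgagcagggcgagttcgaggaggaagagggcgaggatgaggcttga
Tubb3 (chr8:123421617-123421682, plus strand): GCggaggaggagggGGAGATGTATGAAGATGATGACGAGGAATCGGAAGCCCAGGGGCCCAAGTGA
Tubb4a (chr17:57080690-57080755, minus strand): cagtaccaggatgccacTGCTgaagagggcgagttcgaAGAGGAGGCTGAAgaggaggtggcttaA
Tubb4b (chr2:25222308-25222373, minus strand): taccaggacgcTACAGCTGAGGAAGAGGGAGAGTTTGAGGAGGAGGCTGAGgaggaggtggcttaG
Tubb5 (chr17:35834982-35835047, minus strand): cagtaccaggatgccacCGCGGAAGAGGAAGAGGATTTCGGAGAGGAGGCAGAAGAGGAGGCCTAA

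In these ends, 66 of 66 bases of Tuba4a and 54 of 66 of Tubb3 are in capitals, against 4 in Tubb2a and 0 in Tubb2b. Tuba4a ends in the glutamate codon gag before the stop codon, so that its protein is made without the final tyrosine. Over the whole coding sequence, Tuba1a and Tuba1b differ at 23 of 1356 aligned positions (98.3% identical) and Tubb2a and Tubb2b at 47 of 1338 (96.5%). The closest pair among the other beta genes, Tubb3 and Tubb6, is 85.9% identical.

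This likeness decides how firmly a level can be tied to 1 gene. Of all 100-base windows in annotated transcripts of Tubb3, Tubb4a, Tubb5 and Tubb6, 100% occur in no other annotated gene. The share is 78.0% for Tubb4b, 74.0% for Tubb2b, 67.6% for Tuba4a and 63.1% for Tubb2a. It is 34.8% for Tuba1b and 34.2% for Tuba1a, whose windows recur in Tuba1c and in pseudogenes. Neither the read length nor the handling of reads that match several genes is stated in these sources, so the split between Tuba1a and Tuba1b and between Tubb2a and Tubb2b is uncertain. The Tuba4a windows that are not its own lie in exons that overlap Stk16, which was at 12.8 to 50.6 FPKM in 5 libraries and was listed at 0 in PV replicate 7. Exons of Tuba1a and Tuba1b overlap Gm49450, those of Tuba1b also overlap Gm41396, and those of Tubb4b overlap Fam166a. Gm49450 and Fam166a were listed at 0 in all 6 libraries, and Gm41396 reached 8.57 FPKM in PV replicate 7.

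Values are FPKM, fragments counted per kilobase of a gene for every 1e6 fragments of the library, and 23.8 to 33.7 times 1e6 fragments stand behind each library. Pvalb was at 349 to 563 FPKM in PV and 10.4 to 99.5 in Drd2, and Drd2 at 7.74 to 55.0 FPKM in the Drd2 group and at most 0.0132 in PV. A pair of libraries stands apart and bears on what follows. PV replicate 7 had 8610 genes at 1 FPKM or more, against 10293 to 12398 in the other 5, and 31.3% of its FPKM total came from mitochondrial genes (9.62% and 23.0% in the other PV libraries, 3.74% to 5.20% in Drd2). Drd2 replicate 3 had the highest Pvalb and the lowest Drd2 among the Drd2 libraries, and 12 microglial markers summed there to 4068 FPKM, against 23.9 to 1797 elsewhere. Of 5 blood markers, all were at 1 FPKM or more in at least 1 library, and they summed to 743 to 3204 FPKM in PV and to at most 12.1 in Drd2. Sums of oligodendrocyte precursor markers were also higher in all PV libraries (10.7 to 24.8 against 1.67 to 4.35 FPKM), and sums of ependymal markers were lower (2.26 to 3.73 against 7.64 to 19.4 FPKM). Astrocyte markers overlapped (595 to 706 FPKM in PV, 165 to 622 in Drd2). The part of these cells in the tubulin levels was not tested. All 7 neuron markers were at 1 FPKM or more in every library. In bulk libraries, fewer cells of a type and less RNA per cell cannot be told apart.

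**Figure D1:**
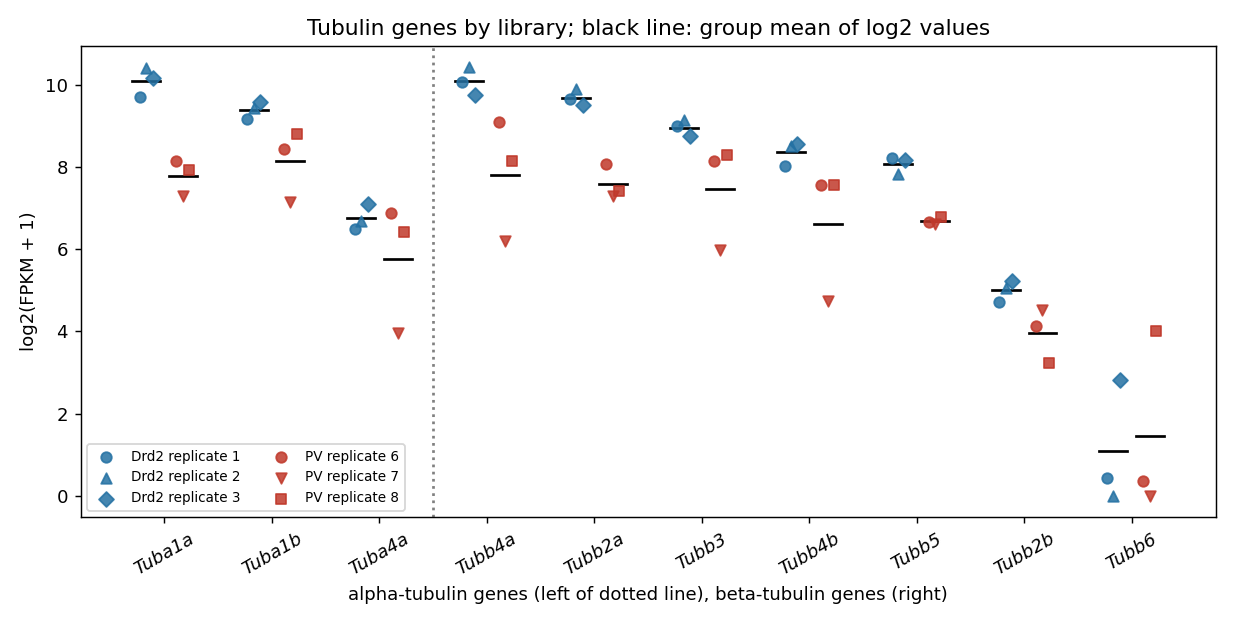
Levels of the 10 tubulin genes in each of the 6 libraries, as log2(FPKM + 1), with alpha genes to the left of the dotted line; each symbol is 1 library and black lines are group means of the log2 values. Drd2 points lie above all PV points for 8 genes, those of Tuba4a and Tubb6 overlap, and PV replicate 7 is the lowest PV library for 8 of the 9 genes other than Tubb6.

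Tubulin transcripts were less abundant in the PV libraries than in the Drd2 libraries. Their sum over the 10 genes was 4468, 5671 and 4771 FPKM for Drd2 replicates 1 to 3, against 2144, 746 and 1856 FPKM for PV replicates 6 to 8. The lowest Drd2 sum was 2.08 times the highest PV sum, and the group means differed 3.14-fold. Leaving mitochondrial genes out of the total, the 10 genes made up 1.28%, 1.70% and 1.40% of the FPKM of the Drd2 libraries and 0.706%, 0.242% and 0.558% of that of the PV libraries, again without overlap. Of 9 genes that passed the filter on low values (at least 1 FPKM in at least 3 libraries), all 9 had a log2 fold below 0 (PV minus Drd2 on the log2(FPKM + 1) scale), with a median of -1.49. Of all 11478 genes tested, 61.6% had a fold below 0, and the median over all 11478 was -0.28, so that the tubulin median lay at -1.21 relative to it. The genes were grouped with earlier results of these libraries known, so their folds are a description of this comparison.

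No tubulin gene passed the threshold over all genes (0 of 9 by limma with Benjamini-Hochberg adjustment at 0.05; 7 of 9 at an unadjusted p under 0.05). Among all genes tested, the share that passed was 0.261%, made up of 0.218% on the Drd2 side and 0.0436% on the PV side. An unadjusted p under 0.05 was reached by 12.8% of all genes, and by 9.77% on the Drd2 side. With limma voom on recovered reads 2 of the 9 passed, Tuba1a and Tubb2a. Groups did not overlap for 8 of the 9, all higher in Drd2, a pattern seen in 13.1% of all genes tested. Since the choice of genes used this contrast, nothing is read from these counts.

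Among the alpha genes, Tuba1a (ENSMUSG00000072235, chromosome 15, 98949837 to 98953703), the main alpha-tubulin of growing neurons, showed the widest separation. Its level was 836, 1364 and 1149 FPKM for Drd2 replicates 1 to 3, against 281, 155 and 243 FPKM for PV replicates 6 to 8. Every Drd2 library was high and every PV library low, and the lowest Drd2 value was 2.97 times the highest PV value. The means were 1116 ± 265 and 226 ± 64.7 FPKM (SD, n = 3 each). The log2 fold was -2.31 ± 0.38 (SE), and it missed the threshold narrowly (limma adjusted p = 0.0501, from 0.0244 to 0.395 over 18 alternative settings).

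Tuba1b (ENSMUSG00000023004, chromosome 15, 98931425 to 98934565) is a widely expressed alpha-tubulin that lies beside Tuba1a. It was at 579, 688 and 766 FPKM in Drd2 neurons, against 346, 142 and 446 FPKM in PV replicates 6, 7 and 8. The groups did not overlap, but PV replicate 8 came close to Drd2 replicate 1, with a ratio of 1.30 between them. Its log2 fold was -1.26 ± 0.46 (SE), -0.78 without PV replicate 7, and did not pass (limma adjusted p = 0.285).

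Since reads of these near-identical genes can be exchanged, they were also summed with Tuba1c, another near copy. The summed level was 1416, 2055 and 1952 FPKM in the Drd2 libraries and 629, 297 and 690 FPKM in PV replicates 6, 7 and 8. The lowest Drd2 sum was 2.05 times the highest PV sum. The genes differ in length and share windows with pseudogenes outside the sum, so it reduces but does not remove the dependence on how reads were split.

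Tuba4a (ENSMUSG00000026202, chromosome 1, 75214228 to 75219865), the alpha-tubulin without an encoded final tyrosine, was the exception. It was at 89.2, 102 and 137 FPKM in Drd2 neurons, against 116, 14.5 and 84.9 FPKM in PV replicates 6, 7 and 8. The groups overlapped, and only PV replicate 7 lay far below the Drd2 range. The log2 fold was -1.01 ± 0.69 (SE; limma adjusted p = 0.572), -0.11 without PV replicate 7, and 0.059 without PV replicate 7 and Drd2 replicate 3.

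Among the beta genes, Tubb2a (ENSMUSG00000058672, chromosome 13, 34074274 to 34078007), a beta-tubulin abundant in neurons, separated the groups most widely. It was at 799, 957 and 725 FPKM in Drd2 neurons, against 266, 155 and 170 FPKM in PV replicates 6, 7 and 8. The PV libraries were all low, with a 1.72-fold range among them against 1.32-fold in Drd2. The lowest Drd2 value was 2.72 times the highest PV value. For Tubb2a the log2 fold was -2.10 ± 0.36 (SE), with the same limma adjusted p as Tuba1a (0.0501, from 0.0253 to 0.360 over 18 alternative settings).

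Its neighbour Tubb2b (ENSMUSG00000045136, chromosome 13, 34126748 to 34130466), better known from migrating neurons, was much scarcer. It was at 25.2, 32.5 and 36.4 FPKM in Drd2 neurons, against 16.6, 21.9 and 8.38 FPKM in PV replicates 6, 7 and 8. The groups were apart by a ratio of only 1.15, and PV replicate 7 was the highest PV library, unlike for the other 8 tested genes. The log2 fold was -1.04 ± 0.49 (SE; limma adjusted p = 0.427). Summed, Tubb2a and Tubb2b were at 824, 990 and 761 FPKM in Drd2 and 283, 177 and 178 FPKM in PV, with a ratio of 2.69 between the lowest Drd2 and the highest PV sum.

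Tubb4a (ENSMUSG00000062591, chromosome 17, 57080066 to 57087782) was the most abundant beta-tubulin of the Drd2 libraries, at 1075, 1373 and 858 FPKM. In PV replicates 6, 7 and 8 it was at 545, 73.0 and 281 FPKM. The PV libraries were all lower but spread 7.47-fold among themselves, against 1.60-fold in Drd2. For Tubb4a the log2 fold was -2.27 ± 0.65 (SE; limma adjusted p = 0.186), and -1.47 without PV replicate 7.

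Because Tubb4a is also a transcript of oligodendrocytes, it was set beside their markers. The sum of 12 markers was 450, 1530 and 74.2 FPKM for Drd2 replicates 1 to 3, against 321, 337 and 69.8 FPKM for PV replicates 6 to 8, so that both groups held high and low libraries. Drd2 replicate 2, the library with the most Tubb4a, also had the most oligodendrocyte transcripts. The markers' part in the level of Tubb4a was not tested.

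Tubb3 (ENSMUSG00000062380, chromosome 8, 123411424 to 123422015), the neuronal beta-tubulin, was at 510, 563 and 428 FPKM in Drd2 neurons, against 285, 61.7 and 311 FPKM in PV replicates 6, 7 and 8. The groups did not overlap, with a ratio of 1.38 between the lowest Drd2 and the highest PV library, and PV replicate 7 was far below the others. The log2 fold was -1.49 ± 0.59 (SE; limma adjusted p = 0.332), and -0.74 without PV replicate 7. Tubb4b (ENSMUSG00000036752, chromosome 2, 25222160 to 25224702), a broadly expressed isotype also used in cilia, had the same shape. It was at 259, 365 and 378 FPKM in Drd2 neurons, against 188, 25.6 and 188 FPKM in PV replicates 6, 7 and 8. Its log2 fold was -1.75 ± 0.70 (SE; limma adjusted p = 0.336), and -0.81 without PV replicate 7.

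Tubb5 (ENSMUSG00000001525, chromosome 17, 35833921 to 35838306), the isotype found in most cell types, was the steadiest tubulin of the PV libraries. It was at 100.03, 96.7 and 109 FPKM in PV replicates 6, 7 and 8, a coefficient of variation of 6.35%, where the other 8 tested genes varied by 28.6% to 79.0% in PV. In the Drd2 libraries it was at 295, 227 and 287 FPKM. The groups were apart by a ratio of 2.08. PV replicate 7 was the lowest PV library here too, but the highest PV value was only 1.13 times its level. The log2 fold was -1.39 ± 0.33 (SE, limma adjusted p = 0.129), against -1.35 without PV replicate 7.

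Tubb6 (ENSMUSG00000001473, chromosome 18), an isotype more typical of cells outside the nervous system, was scarce and did not pass the filter. Its level was 0.353 and 6.06 FPKM for Drd2 replicates 1 and 3, against 0.275 and 15.2 FPKM for PV replicates 6 and 8, and it was listed at 0 in Drd2 replicate 2 and PV replicate 7. High and low libraries occurred in both groups. PV replicate 8 was also the only library with 2 of 9 vascular markers at 1 FPKM or more (summed level 7.09 FPKM, against at most 0.756 elsewhere), and Drd2 replicate 3 held the most microglial transcripts. The part of these cells in Tubb6 was not tested.

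By level per length, Tubb4a or Tuba1a was the most abundant tubulin in each Drd2 library, and Tubb4a, Tubb2a or Tuba1b in the PV libraries. In the Drd2 libraries the order of the group means was Tuba1a and Tubb4a (1116 and 1102 FPKM), Tubb2a (827), Tuba1b (678), Tubb3 (500.2), Tubb4b (334), Tubb5 (270), Tuba4a (109), Tubb2b (31.4) and Tubb6 (2.14). Ranges of neighbours in this order overlapped from Tuba1a down to Tuba1b and between Tubb4b and Tubb5, while Tubb3, Tuba4a, Tubb2b and Tubb6 lay clear of theirs. In PV the order was Tuba1b (311 FPKM), Tubb4a (299), Tuba1a (226), Tubb3 (219), Tubb2a (197), Tubb4b (134), Tubb5 (102), Tuba4a (71.8), Tubb2b (15.6) and Tubb6 (5.15), and the ranges of all neighbours overlapped.

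**Figure D2:**
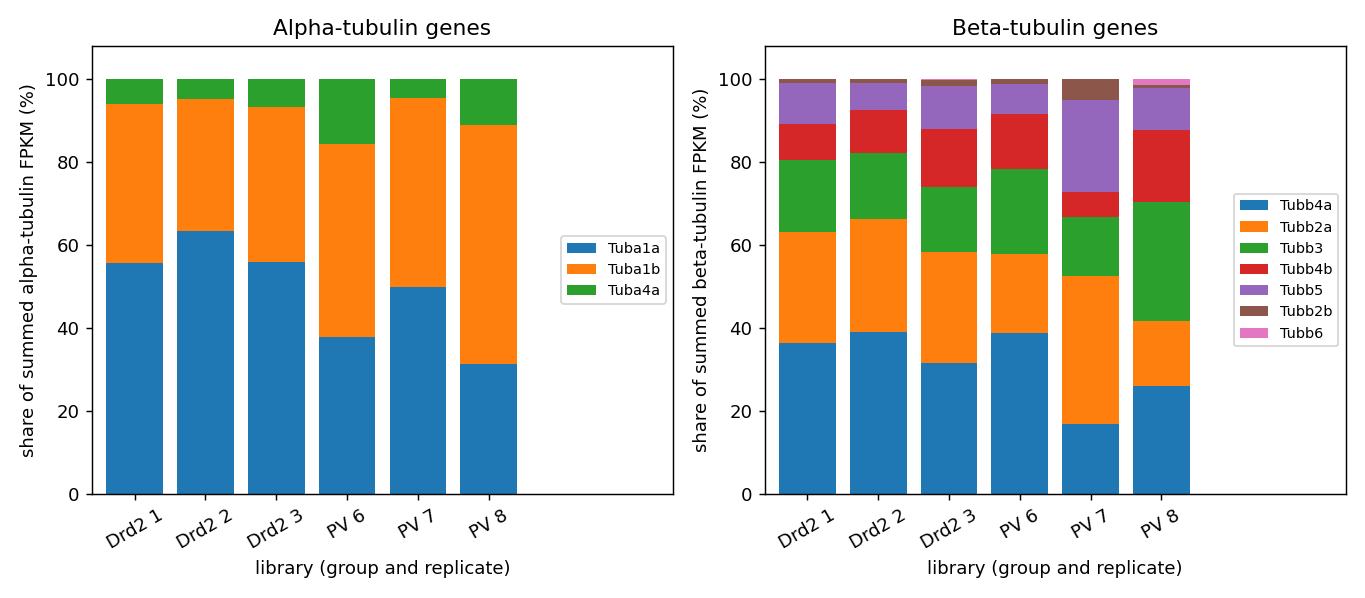
Share of each gene in the summed FPKM of the 3 alpha-tubulin genes (left) and of the 7 beta-tubulin genes (right), as stacked bars per library adding up to 100%. Tuba1a takes 55.6% to 63.3% of the alpha sum in Drd2 and 31.4% to 49.8% in PV, while the beta shares vary more among the PV libraries.

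Shares within a family do not change when a whole library is multiplied by a factor. In the alpha family the share of Tuba1a was 55.6%, 63.3% and 56.0% for Drd2 replicates 1 to 3, against 37.8%, 49.8% and 31.4% for PV replicates 6 to 8, with no overlap. Tuba1b made up 38.5%, 32.0% and 37.3% in Drd2 and 46.5%, 45.6% and 57.7% in PV, again with no overlap. The alpha shares add up to a fixed total, most of it held by Tuba1a and Tuba1b. The separation of Tuba1b therefore largely follows from that of Tuba1a. Thus Tuba1a was the leading alpha gene in all Drd2 libraries, and Tuba1b led in PV replicates 6 and 8 but not in PV replicate 7. This shift between near-identical genes is the quantity most open to exchanged reads. Tuba4a made up 5.93%, 4.73% and 6.68% in Drd2 and 15.6%, 4.65% and 10.97% in PV.

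No beta-tubulin share separated the groups. Among the Drd2 libraries the shares of the beta sum varied little for Tubb2a (27.0%, 27.2% and 26.7%) and Tubb3 (17.2%, 16.0% and 15.7%). The PV libraries differed more from each other. Tubb2a made up 19.0%, 35.8% and 15.7% and Tubb3 20.3%, 14.2% and 28.7% in PV replicates 6, 7 and 8. Tubb4a made up 36.3%, 39.0% and 31.6% in Drd2 and 38.9%, 16.8% and 25.9% in PV, and Tubb5 22.3% in PV replicate 7 against 6.45% to 10.6% in the other 5 libraries.

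The balance of the 2 partners of the dimer did not separate the groups. The ratio of the beta sum to the alpha sum was 1.97, 1.63 and 1.32 for Drd2 replicates 1 to 3, against 1.88, 1.39 and 1.40 for PV replicates 6 to 8. The ranges overlapped almost fully, with means of 1.64 ± 0.323 and 1.56 ± 0.282 (SD, n = 3 each).

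**Figure D3:**
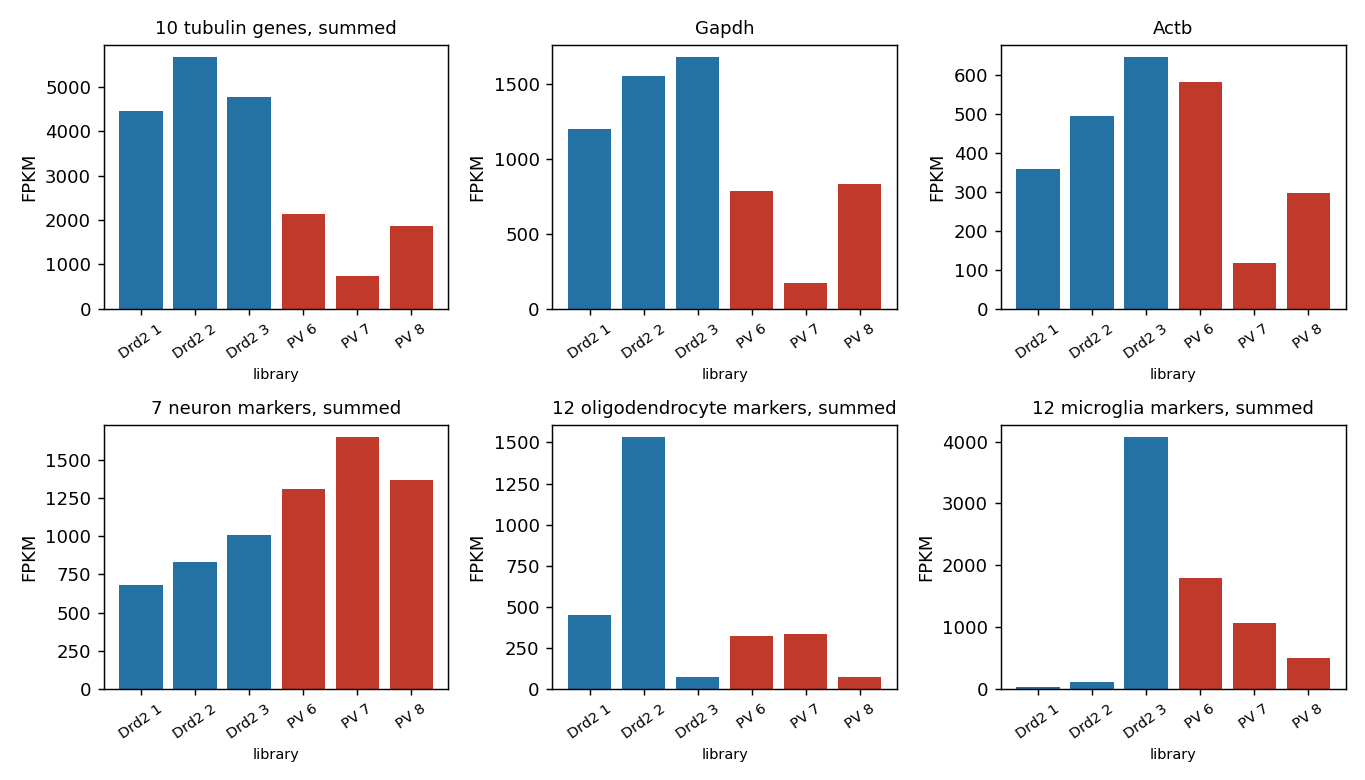
Summed FPKM of the 10 tubulin genes in each library, beside Gapdh, Actb and the summed markers of neurons, oligodendrocytes and microglia; each panel has its own linear axis starting at 0, with Drd2 in blue and PV in red. The tubulin sum and Gapdh are lower in all PV libraries and lowest in PV replicate 7, whereas the neuron markers, with Snap25 and Nefl among them, sum to more in all PV libraries.

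Other abundant transcripts were compared library by library. Gapdh, a glycolytic enzyme, was at 1198, 1553 and 1680 FPKM in Drd2 neurons, against 786, 173 and 831 FPKM in PV replicates 6, 7 and 8, without overlap and lowest in PV replicate 7, as were Tubb3 and Tubb4b. Actb, the cytoskeletal beta-actin, was at 358, 495 and 645 FPKM in Drd2 neurons, against 582, 118 and 297 FPKM in PV, with overlap. The 7 neuron markers summed to 683, 831 and 1005 FPKM in Drd2 and to 1308, 1646 and 1369 FPKM in PV. The order within PV rested on Snap25, a vesicle fusion protein at 1109 FPKM in PV replicate 7: without it the sums were 481, 500.3 and 502 FPKM in Drd2, against 557, 536 and 603 FPKM in PV. Without Snap25 and the neurofilament gene Nefl they were 440.3, 455 and 462 FPKM, against 439, 382 and 391 FPKM. Every PV library then lay below the Drd2 libraries, PV replicate 6 only just. Snap25 and Nefl were left out after their values were seen, and both were higher in all PV libraries. The neuronal enolase Eno2 was lowest in PV replicate 7, at 46.0 FPKM against 94.8 to 160 in the other libraries. The neuronal splicing factor Rbfox3 was also lowest there, at 14.6 FPKM against 25.5 to 63.0. The neuronal gene Slc17a6 was not lowest there. At 132.4 FPKM in PV replicate 7, it lay between PV replicates 6 and 8 (114.2 and 144.2 FPKM) and above Drd2 replicates 1 and 2. The part of these library differences in the tubulin levels was not tested.

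Beyond the alpha and beta genes, 3 of 10 other tubulin genes passed the filter, and none passed the threshold. Of the 3, 1 had an unadjusted limma p under 0.05, reached by 12.8% of all genes tested. Limma voom called none of the 104 related genes tested in all 5 lists. Tubg2, a gamma-tubulin that seeds microtubules, was at 117, 89.4 and 116 FPKM in Drd2 neurons, against 84.7, 16.5 and 27.7 FPKM in PV, without overlap (log2 fold -1.62 ± 0.57, SE; limma adjusted p = 0.269). It was the only 1 of the 3 whose groups did not overlap, a pattern seen on the Drd2 side in 13.1% of all genes tested. Tubg1, the more widely expressed gamma-tubulin, was at 67.8, 51.0 and 80.2 FPKM against 36.3, 15.0 and 52.7 FPKM, with overlap. Tuba1c was at 36.9 FPKM in Drd2 replicate 3 and at 0.0948 to 2.90 FPKM in the other libraries. Tuba8, below the filter, was at 6.27 and 8.73 FPKM in PV replicates 6 and 7 and was listed at 0 in PV replicate 8, with at most 0.132 FPKM in Drd2. Tubb1, the platelet isotype, Tuba3a and Tubal3 were listed at 0 in all 6 libraries.

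Genes listed for tubulin folding, with the mRNA decay factor Ttc5 counted among them, lay on both sides. All 22 listed genes were tested, 12 with a fold below 0 and 10 above. The median log2 fold was -0.07, which is 0.20 above the median over all genes. None passed, and 1 of the 22, Ttc5, had an unadjusted limma p under 0.05, reached by 12.8% of all genes tested. Groups did not overlap for 3, all higher in Drd2, where 13.1% of all genes tested did so. Ttc5, which triggers the decay of tubulin mRNA when free tubulin is high, was at 27.8, 7.11 and 11.6 FPKM in Drd2 neurons, against 5.48, 1.54 and 5.42 FPKM in PV (log2 fold -1.60 ± 0.70, SE; limma adjusted p = 0.381). Tbcc, a cofactor in assembling the dimer, was at 61.6, 29.2 and 36.9 FPKM against 25.6, 2.95 and 25.8 FPKM. The chaperonin subunits Cct6a and Cct4 overlapped between the groups, with log2 folds of -0.89 and -0.99.

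Of 25 genes for enzymes that modify tubulin, 14 were tested, 11 with a fold below 0 and 3 above, and the median was -0.73, a difference of -0.45 from the median over all genes. None passed, and 3 of the 14 had an unadjusted limma p under 0.05, reached by 12.8% of all genes tested. Groups did not overlap for 1 of the 14 genes higher in Drd2 and for 2 higher in PV, patterns seen in 13.1% and 5.83% of all genes tested. Ttll7, which adds glutamates to beta-tubulin tails, was at 26.3, 17.8 and 20.2 FPKM in Drd2 neurons, against 28.4, 51.8 and 60.8 FPKM in PV, higher in PV without overlap (log2 fold 1.05 ± 0.45, SE; limma adjusted p = 0.376). Atat1, the alpha-tubulin acetyltransferase, was at 29.5, 22.1 and 41.2 FPKM against 20.3, 8.08 and 15.0 FPKM, lower in PV without overlap. The deacetylases Sirt2 and Hdac6 overlapped, with log2 folds of -1.34 and -1.82. Sirt2, which is also a myelin gene, was highest in Drd2 replicate 2, at 60.2 FPKM, the library with the most oligodendrocyte transcripts.

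Microtubule-associated proteins were divided. Of 40 genes 37 were tested, 23 with a fold below 0 and 14 above. The median was -0.25, close to the median over all genes. None passed, and 8 of the 37 had an unadjusted limma p under 0.05, reached by 12.8% of all genes tested. Groups did not overlap for 4 of the 37 genes higher in Drd2 and for 7 higher in PV, patterns seen in 13.1% and 5.83% of all genes tested. Tppp3, a promoter of tubulin polymerization, was at 217, 200.4 and 87.9 FPKM in Drd2 neurons, against 26.8, 9.85 and 46.5 FPKM in PV (log2 fold -2.70 ± 0.60, SE; limma adjusted p = 0.103). Stmn1, the stathmin that binds free tubulin dimers, was at 1351, 1124 and 1194 FPKM against 213, 661 and 443 FPKM, and PV replicate 7 was its highest PV library. It did not pass (limma adjusted p = 0.179), but did with quantile normalization. Mapre3, which rides on growing plus ends, was at 116, 127 and 91.5 FPKM against 59.5, 9.26 and 37.6 FPKM. In the other direction, Map1a, which binds along mature axons and dendrites, was at 10.2, 14.7 and 5.76 FPKM in Drd2 neurons, against 35.9, 20.0 and 47.6 FPKM in PV (log2 fold 1.66 ± 0.54, SE; limma adjusted p = 0.232).

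Motor genes also lay on both sides. All 28 were tested, 17 with a fold above 0 and 11 below. The median was 0.38, which is 0.66 above the median over all genes. None passed, and 4 of the 28 had an unadjusted limma p under 0.05, near the 12.8% of all genes tested. Groups did not overlap for 7 of the 28 higher in PV and 3 higher in Drd2, patterns seen in 5.83% and 13.1% of all genes tested. Kif5b, a kinesin-1 heavy chain, was at 14.8, 13.7 and 22.0 FPKM in Drd2 neurons, against 29.0, 46.8 and 42.5 FPKM in PV (log2 fold 1.18 ± 0.44, SE; limma adjusted p = 0.306). The dynein light chains diverged. Dynll1 was at 127, 103 and 132 FPKM against 56.1, 27.1 and 44.8 FPKM, and Dynll2 at 48.4, 38.6 and 19.5 FPKM against 61.7, 65.5 and 92.8 FPKM. Both lacked overlap, and neither passed (limma adjusted p = 0.161 and 0.355). Dctn2, a subunit of dynactin, was at 95.7, 71.2 and 72.9 FPKM against 48.2, 42.5 and 40.4 FPKM.

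**Figure D4:**
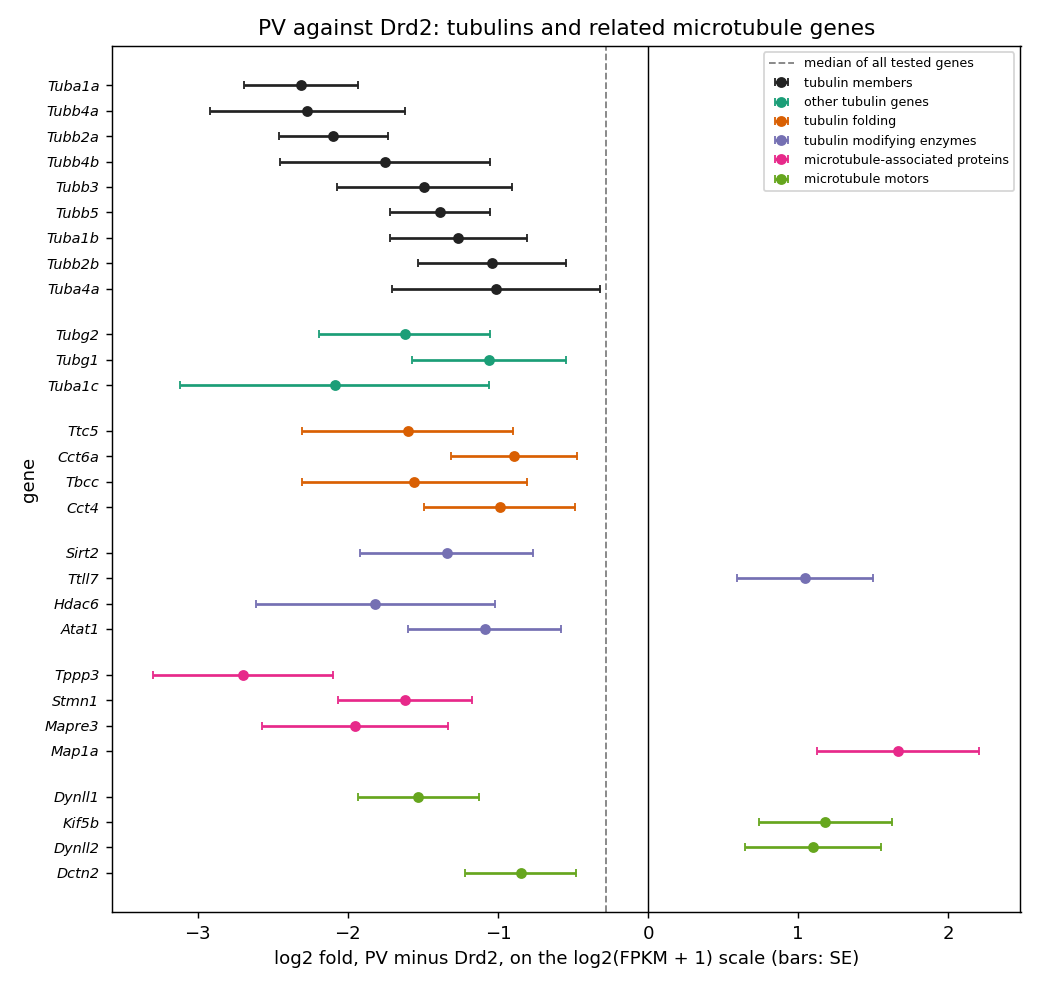
Log2 folds, PV minus Drd2, with SE, of the 9 tested tubulin genes and of up to 4 genes with the smallest p in each related list; the dashed line is the median of all 11478 genes tested (-0.28). All tubulin genes lie left of that line, from -2.31 to -1.01, while Map1a, Kif5b, Dynll2 and Ttll7 lie to the right of 0; none of the genes shown passed the threshold over all genes.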

How the data were processed

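Per the labels' protocols, RNA was purified on columns and the 6 libraries came from a SMARTer kit. The deposited table holds FPKM values made by the authors. The submitters' processing notes list STAR and mm10 beside human builds. The method of gene quantification and its annotation and strand setting are not stated in these notes or labels. Gene identifiers are of mouse, and 94.0% were found in GENCODE M21 (mm10), which gave positions, exon lengths and sequences. FPKM times exon length gave whole reads within 0.01 read for 97.9% to 98.8% of values up to 20 reads, where chance gives 2%. Tested tubulin genes held 545 to 91828 recovered reads per library, so counting error is small, although PCR copies are not independent.

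Values were compared as log2(FPKM + 1), which understates folds of weak genes, in a 2-sided limma test (version 3.58.1 in R 4.3.3, prior variance following intensity) over the 11478 genes reaching 1 FPKM in 3 or more libraries. The p-values were adjusted by Benjamini-Hochberg over all of these, with 0.05 as the threshold. In a simulated comparison of PV with Drd2, 200 of 11478 genes were changed. The test recovered 87% of genes changed by 3 and 97% of those changed by 5 on the log2 scale, and 15 of 199 calls were false. The changed genes were well expressed, and noise was normal and independent, with no deviating library such as PV replicate 7. The tubulin folds (-2.31 to -1.01) were smaller than the simulated ones, so the simulation does not tell how often such folds are recovered. Coding sequences were aligned with Biopython 1.88; those of Tuba1a and Tuba1b are not shown here. Members and lists were chosen with earlier results of these data known. The text names Pvalb, Drd2, all tubulin members and, per related list, up to 4 genes with the smallest p; other genes were chosen after their values were seen. Alternatives were other pseudocounts, filters, scalings, variance models, voom and left-out libraries.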

Additional observations from a re-analysis of the deposited data

How the results depend on the processing

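No paired analysis was possible because the groups share no replicate numbers. Of 162 recomputed folds of the 9 tested tubulin genes over 18 alternatives, 161 were below 0; the exception was Tuba4a without PV replicate 7 and Drd2 replicate 3 (0.059); leaving out 1 library, its fold ran from -1.57 to -0.11. The number of tubulin genes past the threshold was 0, and became 2 with a pseudocount of 5 FPKM, quantile normalization, array weights or limma voom, 1 with at least 5 FPKM in 3 libraries, and 0 to 2 when 1 library was left out (2 without PV replicate 6). These were Tuba1a and Tubb2a, and Tuba1a with the stricter filter. Over all genes 30 passed, 4 with a pseudocount of 0.1 FPKM, 68 with 5 FPKM, 0 with no filter, 68 with quantile normalization (46 higher in Drd2 and 22 in PV, against 25 and 5), 46 without a trend, 105 with array weights, 18 without PV replicate 7 and Drd2 replicate 3, and 1 to 56 when 1 library was left out (2, 3 and 1 without Drd2 replicate 1, 2 or 3, and 56, 42 and 20 without PV replicate 6, 7 or 8). Of the related microtubule genes 0 passed, and 1 with quantile normalization, Stmn1; with any 1 library left out it was 0. The cause was not tested. The median fold of all genes ran from -0.50 (TPM) over -0.12 (median of ratios) and -0.19 (total without mitochondrial genes) to 0.047 (quantile normalization); the folds of Tuba1a and Tubb2a ran from -2.51 to -2.03 and from -2.33 to -1.89 over all alternatives. Of 100 recomputed differences in isotype shares, 99 moved by less than 1 SD (pooled over the groups, and widened by PV replicate 7), and 95 kept their sign. Those that did not were Tubb2b (-0.059 against 1.30 points) and Tubb5 (-0.37 against 4.18) without PV replicate 7, and Tubb2a (0.45 against -3.45), Tubb4b (-1.35 against 1.22) and Tubb6 (-0.068 against 0.40) without PV replicate 8. Tubb2a was at -9.60 without PV replicate 7. That of Tubb4b was 5.84 percentage points without PV replicate 7 and Drd2 replicate 3, against 1.22.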
